A study of Mus musculus with 54 samples.

Results

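The epithelium of the distal mouse intestine at embryonic day (E)16.5 was set against the same end of the intestine at E13.5, which asks what the lining of the future ileum gains and loses over those days. The members were chosen by sample label alone: the EpCAM_Dist group with 3 libraries and the E135_EpCAM_Dist group with 3 libraries, 6 of the 54 samples in the series, with every gene that has a value at both stages. Both groups were C57Bl/6J fetuses with treatment "None", and both were sorted as EpCAM+/DAPI-/CD31-/CD45-, that is, living epithelial cells cleared of endothelium and of white blood cells. The gate, RNA extraction and library kit were the same, but each stage is a set of libraries with a table of its own, so stage and library set cannot be told apart. The intestine was cut into more sections at E16.5 than at E13.5, so "distal" names a smaller share of it at E16.5. In such sorted populations a larger share of a cell type and more RNA per cell cannot be told apart.

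At E13.5 the intestinal tube is lined by a thick, dividing, largely uncommitted epithelium, and villi have not yet formed distally. Villi then rise from proximal to distal, and their surface cells become absorptive enterocytes with a brush border, mucus-secreting goblet cells and hormone-secreting enteroendocrine cells, while dividing cells are left between the villi. The epithelium makes the Hedgehog ligands Shh and Ihh, which act on the mesenchyme beneath it, and answers to Wnt, BMP and Notch signals. The distal end becomes the ileum, known for uptake of bile acids and, before weaning, of whole protein.

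Levels are RPKM (reads scaled to gene length and to the number of reads) rescaled between the stages so that the median gene had the same level. Recovered reads ranged from 15072991 to 23637131 in the 6 distal libraries. The label was checked with its markers. Epcam, the surface protein used for the sort, stood at 295, 321 and 304 RPKM at E13.5 and at 535, 583 and 609 RPKM at E16.5. The 9 epithelial markers summed to 996.8 to 1215 RPKM at E13.5 and to 2341 to 2389 RPKM at E16.5. Of the 9, 5 passed the test described below as higher, 3 of them under all 4 scalings compared there. Epcam passed under the main scaling only, with log2 changes of 0.60 to 0.70 under the others. Nts, the neurotensin gene and a marker of distal gut, was at 97.8, 87.7 and 93.0 RPKM in distal E16.5 libraries against a mean of 3.59 RPKM in the proximal ones, and it has no E13.5 value to set beside these.

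Markers of other cells were not level between the stages. The 3 measured of 9 blood markers summed to 15.02, 16.38 and 10.98 RPKM at E13.5 and to 92.1, 231.5 and 182.4 RPKM at E16.5, nearly all of it haemoglobin (Hba-a1 and Hbb-bs, each with a near-identical copy, so uncertain by gene). The 6 measured of 8 mesenchymal markers summed to 62.7, 69.8 and 11.5 RPKM at E13.5 and to 27.0, 38.1 and 46.5 RPKM at E16.5. Within that sum Postn, which codes for periostin, was at 48.0, 60.9 and 0.973 RPKM at E13.5, so E13.5 replicate 3 stood apart, while Col1a1 was at 3.26, 1.40 and 0.498 RPKM at E13.5 and at 10.6, 14.2 and 17.3 RPKM at E16.5. The 4 measured smooth muscle markers summed to 5.28 to 12.4 RPKM at E13.5 and 21.0 to 44.4 RPKM at E16.5, and none of the 5 endothelial markers had a value at both stages. In the E16.5 table as deposited, sorted distal mesenchyme gave 4485 to 8296 RPKM for the mesenchymal markers, against 28.3 to 48.3 RPKM in distal epithelium. What these RNAs contribute to the matrix genes below was not tested.

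The 2 stages shared 14586 genes, of which 12497 reached 1 RPKM in at least 3 of the 6 distal libraries and were tested. Of these, 2040 were higher at E16.5 (16.3%) and 1587 lower (12.7%), by limma's treat test for a change of more than 0.5 on the log2 scale at a Benjamini-Hochberg adjusted p under 0.05. More than 4-fold changes were seen for 452 of the higher and 334 of the lower genes. How the 2 sets of libraries are put on a common scale moves this split: with values as deposited, 1523 genes were higher and 2257 lower, with the total RPKM set equal 1277 and 2687, and with quantile normalization 1825 and 1827. These scalings shift the median of all genes by -0.19, -0.29 and -0.07 on the log2 scale relative to the main one. Under all 4 scalings 1277 genes were called higher and 1508 lower. That 0 called genes changed sign adds little, since a call needs a change of more than 0.5, beyond shifts of this size. Without 1 library at a time, 1792 to 2012 genes were higher and 1399 to 1537 lower.

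The 12 genes that rose most were products of secretory and absorptive cells. Gcg, the precursor of the glucagon-like peptides of ileal L cells (gene at chr2:62474530-62483653, GRCm38.p6), was at 0.0366, 0 and 0 RPKM at E13.5 and at 395, 379.8 and 395 RPKM at E16.5. That was 1 read over the 3 E13.5 libraries against 25095 at E16.5, a ratio of 27780 with a 95% counting interval of 4986 to 1097000. Pyy, the peptide YY hormone gene of the same cells, had 0 reads at E13.5 and stood at 69.8, 62.2 and 58.4 RPKM at E16.5. That was 683.5-fold higher when set against a floor of 3 reads over the group, and the lower end of the 95% counting interval was 555.3.

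Chgb and Chga, the chromogranins that pack hormone granules, were at 0.190, 0.0761 and 0 RPKM and at 0.403, 0.265 and 0.0983 RPKM at E13.5. At E16.5 Chgb was at 178, 227 and 180 RPKM and Chga at 54.3, 66.0 and 48.7 RPKM. The hormone gene Cck went from 0.466, 0.242 and 0.270 to 93.4, 92.2 and 80.7 RPKM. Chgb lost its call when recovered reads were fitted with limma-voom (adjusted p = 0.0614), where its log2 change was 11.56. None of Gcg, Pyy, Chgb, Chga and Cck exceeded 0.466 RPKM in a distal E13.5 library, while all were higher on average in proximal E13.5 libraries. The granule enzyme gene Cpe, by contrast, was at 16.5, 11.5 and 13.9 RPKM at E13.5 and did not pass the test.

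Goblet cell genes followed the same pattern. Fcgbp, a mucus protein, went from 0.191, 0.0682 and 0.124 to 190, 189 and 167 RPKM (log2 change 8.19, SE 0.28). Agr2, which helps to fold mucins, went from 0.578, 0.821 and 0 to 223, 192 and 222 RPKM. Tff3, a trefoil peptide secreted with mucus, went from 3.14, 2.27 and 1.08 to 267, 269 and 237 RPKM (log2 change 6.68, SE 0.34). Dmbt1, a secreted mucosal defence protein, rose from at most 0.0384 RPKM to 28.2, 27.7 and 46.3 RPKM. Stages did not overlap for any of them.

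**Figure D1:**
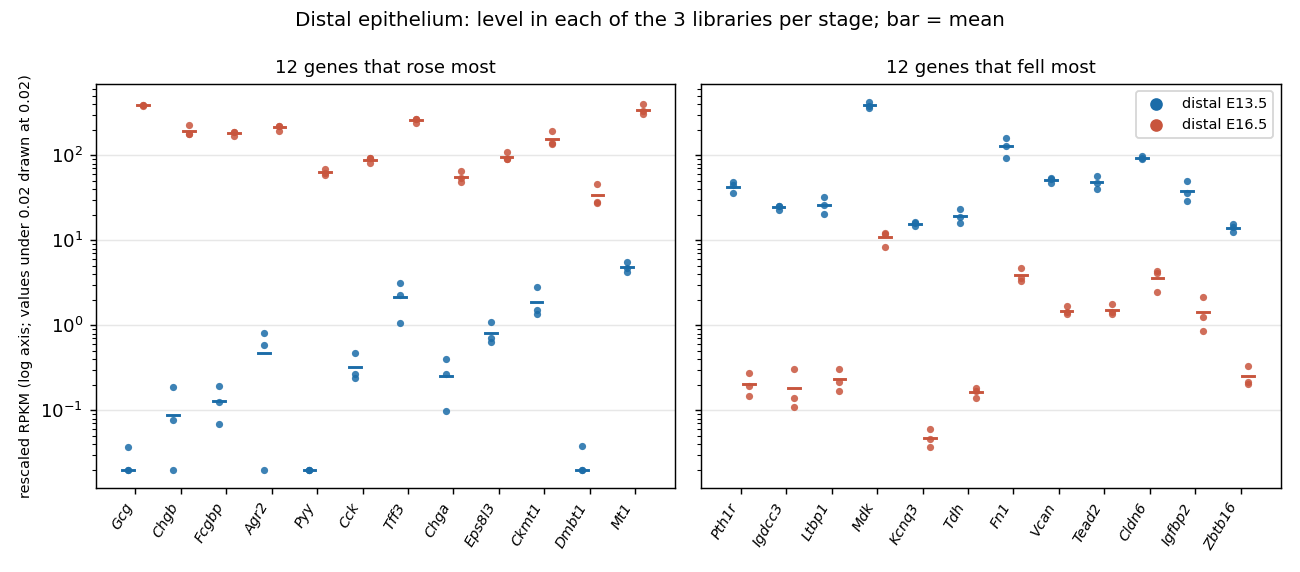
Rescaled RPKM (log axis, values under 0.02 drawn at 0.02) of the 12 genes that rose most and the 12 that fell most in distal epithelium; each point is 1 of the 3 libraries of a stage and the bar is their mean. The genes were drawn only from those without overlap between stages, so its absence here is not a result. Gcg sits at 379.8 to 395 at E16.5 and at most at 0.0366 at E13.5. Pth1r sits at 35.8 to 48.2 at E13.5 and at most at 0.274 at E16.5.

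The remaining genes of that set serve the absorptive cell. Eps8l3, a relative of the microvillus protein Eps8, went from 0.634, 1.10 and 0.706 to 89.8, 90.2 and 110 RPKM. Ckmt1, the mitochondrial creatine kinase, went from 1.51, 2.80 and 1.36 to 134.9, 141 and 193 RPKM. Mt1, a metallothionein that binds zinc and copper, went from 4.72, 4.22 and 5.58 to 336, 303 and 397 RPKM, the last of the 12. Its neighbour Mt2, the next by size of change, went from 0.647, 0.449 and 0.887 to 68.9, 64.5 and 79.5 RPKM.

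The promoters of both metallothioneins are shown because these neighbouring genes moved together, with log2 changes of 6.02 (SE 0.19) for Mt1 and 5.96 (SE 0.29) for Mt2. The windows are RefSeq's 250 bases before to 50 after a gene start on GRCm38.p6, plus strand, at chr8:94178839-94179138 for Mt1 and chr8:94172368-94172667 for Mt2. Capitals mark each match to the metal response element core, searched as TGCACNC or TGCGCNC on both strands.
Mt1: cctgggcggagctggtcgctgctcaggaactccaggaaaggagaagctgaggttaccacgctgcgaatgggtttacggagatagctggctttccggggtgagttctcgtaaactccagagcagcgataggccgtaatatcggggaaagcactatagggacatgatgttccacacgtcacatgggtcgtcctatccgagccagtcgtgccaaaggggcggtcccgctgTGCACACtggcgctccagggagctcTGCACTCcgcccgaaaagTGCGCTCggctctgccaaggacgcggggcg
Mt2: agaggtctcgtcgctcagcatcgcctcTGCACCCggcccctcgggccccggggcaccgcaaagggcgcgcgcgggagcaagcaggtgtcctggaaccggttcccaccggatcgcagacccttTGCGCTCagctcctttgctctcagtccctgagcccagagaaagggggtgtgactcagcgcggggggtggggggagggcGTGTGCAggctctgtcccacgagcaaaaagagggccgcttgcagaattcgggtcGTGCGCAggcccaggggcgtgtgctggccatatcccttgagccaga
The Mt1 window holds 3 matches and the Mt2 window 4. A match was found in 28.2% of the 27025 genes with a promoter in the table, in 41.5% of the 9418 tested genes with one, in 33.7% of the 347 such genes that rose more than 4-fold and in 51.4% of those that fell more than 4-fold. A match is a description of the letters, not a site in use.

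The 12 genes that fell most included growth factors, receptors, matrix proteins and regulators of the embryonic epithelium. Pth1r, the receptor for parathyroid hormone and its related peptide, went from 48.2, 35.8 and 44.2 to 0.148, 0.196 and 0.274 RPKM (log2 change -5.93, SE 0.14). Mdk, the heparin-binding growth factor midkine, was among the most abundant of them at 424, 363 and 379 RPKM at E13.5 and 11.9, 12.3 and 8.35 RPKM at E16.5. Igfbp2, which binds insulin-like growth factors, went from 49.3, 36.3 and 29.0 to 1.26, 2.16 and 0.856 RPKM. Each of these was lower in all 3 E16.5 libraries than in any E13.5 library, again a condition for being among the 12.

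Fn1, fibronectin, went from 129, 161 and 94.3 to 3.31, 4.70 and 3.61 RPKM, and the proteoglycan gene Vcan from 46.8, 52.9 and 53.9 to 1.43, 1.68 and 1.34 RPKM. Ltbp1, which holds latent TGF beta in the matrix, went from 25.9, 20.7 and 32.5 to 0.170, 0.307 and 0.215 RPKM. Fn1 and Vcan are also made by mesenchyme, whose markers moved as given above. E13.5 replicate 3, with the lowest mesenchymal sum, had the lowest Fn1 and the highest Vcan value of the 3, and the part of mesenchymal RNA was not tested. Tead2, a partner of the Hippo pathway effector Yap, went from 57.7, 47.4 and 39.9 to 1.42, 1.76 and 1.35 RPKM. Cldn6, a tight junction protein of embryonic epithelia, went from 93.0, 97.7 and 89.6 to 4.17, 4.31 and 2.44 RPKM. The others were Igdcc3, the potassium channel gene Kcnq3, the threonine dehydrogenase gene Tdh and the zinc finger gene Zbtb16, with log2 changes between -5.20 and -4.28.

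Lists of genes with a shared role give the breadth of these changes. Counts are of tested members, and no list was tested as a set. Over all genes tested 16.3% rose and 12.7% fell, with a median log2 change of 0.01. Of 16 brush border and junction genes, 11 rose and 0 fell, with a median log2 change of 1.41. Myo1a, the motor that ties microvillus actin to the membrane, went from 2.18, 4.51 and 1.93 to 35.8, 42.2 and 46.4 RPKM. The intermicrovillar adhesion genes Cdhr2 and Cdhr5 rose by 3.35 (SE 0.15) and 2.83 (SE 0.18) on the log2 scale. Vil1, the actin bundler villin, was already at 41.5, 44.7 and 46.9 RPKM at E13.5 and reached 156, 154 and 192 RPKM. Ezr, ezrin, did not pass the test, at 152 to 172 RPKM at E13.5 and 187 to 214 RPKM at E16.5. Villin and ezrin were thus abundant already at E13.5.

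Of 14 brush border enzymes, 11 rose and 1 fell (median 2.80). Naaladl1, an ileal peptidase, went from 2.21, 2.60 and 3.279 to 88.9, 90.2 and 120 RPKM. The aminopeptidase genes Enpep and Anpep rose by 3.82 (SE 0.18) and 2.97 (SE 0.13). The phosphatases changed places: Alpi, the intestinal enzyme, went from 0.256, 0.178 and 0.422 to 8.29, 8.34 and 18.8 RPKM, and Alpl, the tissue non-specific enzyme, from 13.96, 9.93 and 17.5 to 0.481, 0.614 and 0.226 RPKM. Alpi was highest in E16.5 replicate 3.

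Of 18 lipid and bile acid genes, 14 rose and 2 fell (median 1.94). Apoa4, an apolipoprotein of chylomicrons, went from 0.864, 0.674 and 0.962 to 49.7, 60.9 and 139 RPKM. Mttp, which loads lipid onto apolipoprotein B, went from 3.87, 2.86 and 3.55 to 68.6, 76.0 and 138 RPKM. Fabp2 reached 72.5, 85.7 and 173 RPKM and Apoa1 148, 153 and 381 RPKM. E16.5 replicate 3 was the highest of the 3 for each of these. Nr1h4, the bile acid receptor FXR, went from 3.71, 4.69 and 4.56 to 43.9, 41.6 and 57.7 RPKM (log2 change 3.31, SE 0.23). The pair that fell was Pnliprp2, a lipase, from 3.64, 3.55 and 4.92 to 0.441, 0.475 and 0.363 RPKM, and Scarb1, the HDL receptor, from 8.48, 7.26 and 7.99 to 4.03, 3.91 and 5.12 RPKM. Scarb1 no longer passed without E13.5 replicate 1, E16.5 replicate 1 or E16.5 replicate 2 (log2 change -0.75 to -0.73).

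The promoter of Nr1h4 is shown because this receptor rose and its window carries the binding cores of Cdx factors (TTTATG) and of HNF1 (GTTAAT), both searched on both strands and marked in capitals. It lies at chr10:89506609-89506908 on the minus strand (RefSeq, GRCm38.p6), and was chosen after its values were seen.
Nr1h4: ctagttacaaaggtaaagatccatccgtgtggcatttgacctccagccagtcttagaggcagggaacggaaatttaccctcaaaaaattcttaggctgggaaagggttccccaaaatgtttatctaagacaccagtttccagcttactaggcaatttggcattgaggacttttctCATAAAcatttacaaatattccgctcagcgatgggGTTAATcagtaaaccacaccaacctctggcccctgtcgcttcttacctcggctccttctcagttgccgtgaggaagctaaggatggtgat
TTTATG was in 13.6% of all promoters in the table, 7.52% of those of tested genes, 13% of those that rose more than 4-fold and 3.89% of those that fell more than 4-fold. GTTAAT was in 8.24%, 5.35% and 8.93%, and in 8.56% of those that fell more than 4-fold. CAAAGTC, a core bound by HNF4, was in 5%, 4.35% and 9.22%, and in 7% of those that fell more than 4-fold. These shares are descriptions and were not tested.

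Of 16 transporters, 11 rose and 1 fell (median 1.12). Slc7a9 and Slc3a1, the subunits of the cystine and basic amino acid transporter, went from at most 1.47 and 1.14 RPKM to 25.8, 28.2 and 40.5 RPKM and to 15.3, 15.8 and 30.2 RPKM. Slc5a1, the sodium-glucose transporter SGLT1, went from 3.37, 4.57 and 5.97 to 25.4, 29.5 and 36.7 RPKM. The apical anion exchanger gene Slc26a6 rose by 2.37 (SE 0.14). The gene that fell was Slc2a3, the high-affinity glucose carrier GLUT3, from 16.5, 7.27 and 4.42 to 0.0291, 0.0672 and 0.210 RPKM.

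Endocytosis and lysosome genes, known from the fetal ileum that takes up protein whole, counted 12 higher and 2 lower of 18 (median 1.22). Amn, the amnionless subunit of the cubilin receptor, went from 1.19, 1.38 and 1.24 to 52.7, 48.6 and 64.2 RPKM (log2 change 4.97, SE 0.17). Cubn, cubilin itself, went from 17.2, 16.2 and 27.1 to 39.9, 42.2 and 62.6 RPKM (log2 change 1.24, SE 0.23), and lost its call with values as deposited and with total RPKM set equal, and without E13.5 replicate 2 or E16.5 replicate 3. The lysosomal enzyme genes Glb1 and Ctsb rose by 2.59 and 1.99. Ctsl, cathepsin L, fell from 39.9, 33.0 and 32.3 to 13.9, 15.2 and 16.3 RPKM, and Lipa, the lysosomal lipase, had a log2 change of -1.05 (SE 0.19), a call that was lost without any 1 of 4 libraries.

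Of 24 listed goblet, Paneth and tuft genes 8 were tested, none of them a tuft cell marker, and all 8 rose (median 3.90). The tuft genes Dclk1, Pou2f3 and Avil were under the filter, at means of 0.0863, 0.326 and 0.592 RPKM at E13.5 and 0.0182, 0.105 and 0.213 RPKM at E16.5. Besides Fcgbp, Agr2 and Tff3 they included Muc13, a membrane mucin, from 24.2, 25.7 and 34.9 to 443, 434 and 580 RPKM. Spdef, a transcription factor of goblet and Paneth cells, went from 1.01, 0.684 and 0.676 to 14.6, 14.4 and 12.4 RPKM. The endoplasmic reticulum stress factors Creb3l1 and Creb3l4 rose by 3.72 (SE 0.40) and 3.21 (SE 0.25). Many defining members, such as Muc2, have no E13.5 value and are given further below.

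Of 19 enteroendocrine genes, 16 rose and 0 fell (median 3.85, or 3.94 with the 3 members without E13.5 reads set against a floor of 3 reads). The lineage factors moved with the hormones. Neurog3, the factor that starts the endocrine lineage, had 3 reads at E13.5 (0, 0 and 0.120 RPKM) and 6.59, 7.47 and 7.76 RPKM at E16.5, a ratio of 245.4 with a 95% counting interval of 83.6 to 1193. Neurod1, which acts after it, had 0 reads at E13.5 and 8.39, 9.35 and 8.90 RPKM at E16.5. That was 482.7-fold higher against the floor of 3 reads, and the lower end of the 95% counting interval was 392.

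Pax6 had 1 read at E13.5 and 3.88, 4.57 and 4.50 RPKM at E16.5. Sct, the secretin gene, was the hormone with the clearest E13.5 level, at 3.78, 4.10 and 3.89 RPKM, and went to 212, 217 and 200 RPKM (log2 change 5.57, SE 0.16). Rfx6, an endocrine factor also of early gut endoderm, was at 5.52, 2.42 and 4.82 RPKM at E13.5 and 3.41, 3.64 and 3.25 RPKM at E16.5, and did not pass the test. Isl1 and Insm1, also factors of the lineage, were low but present at E13.5, at 0.142, 0.230 and 0.342 RPKM and at 0.145, 0.193 and 0.0204 RPKM, and both rose.

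**Figure D2:**
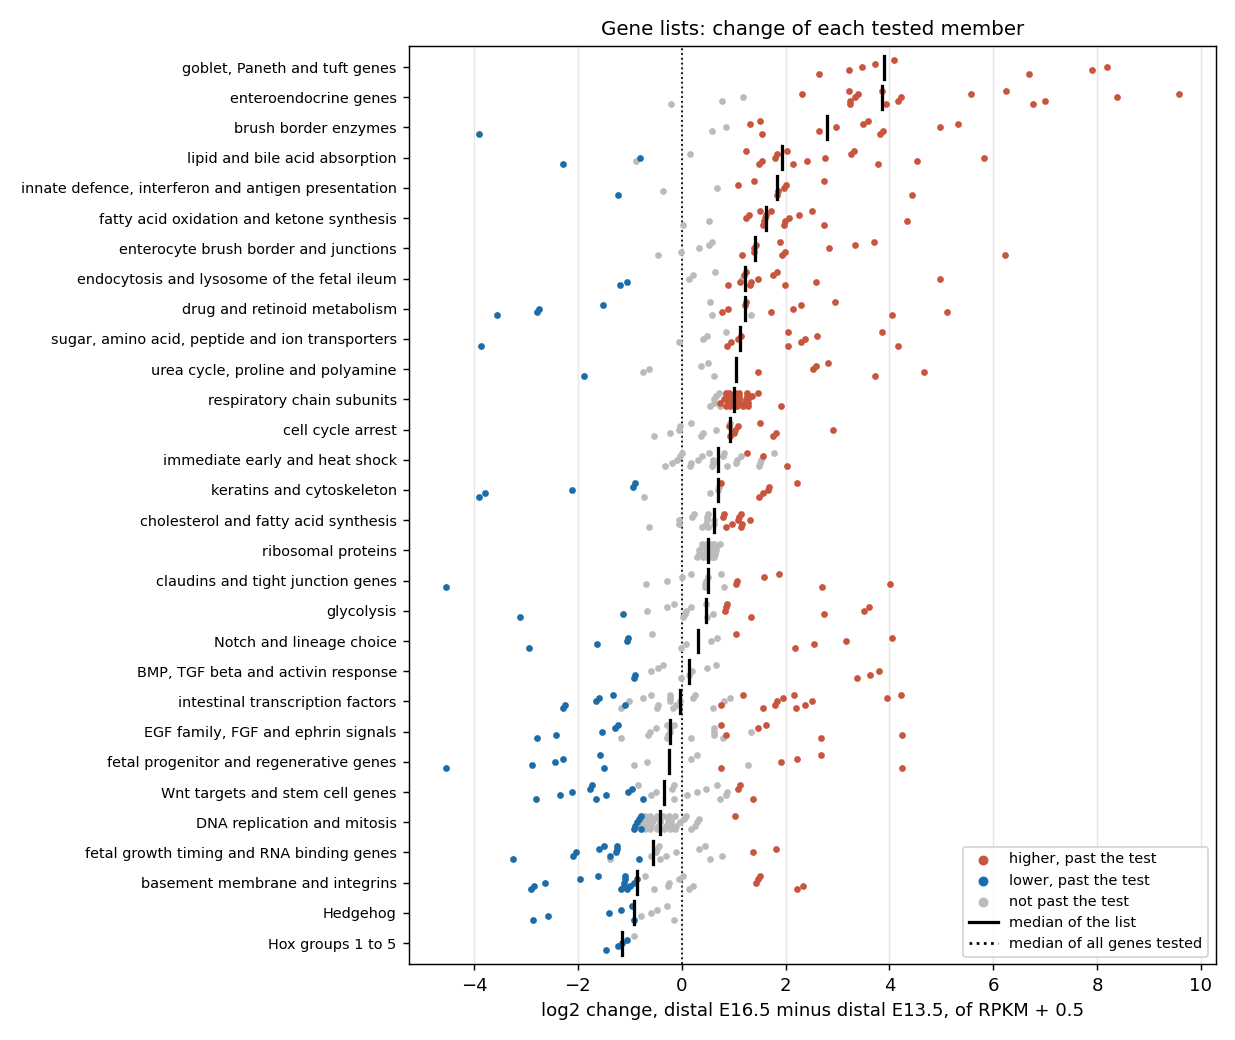
Log2 change from distal E13.5 to distal E16.5 of RPKM + 0.5 for each tested gene (points) in lists with 5 or more tested members; colour gives the call, the black bar the list's median and the dotted line the median of all genes (0.01). Goblet and enteroendocrine medians lie at 3.90 and 3.85, and those of Hedgehog and Hox groups 1 to 5 at -0.91 and -1.14.

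Notch signals set the choice between absorptive and secretory cells. Of 14 Notch and lineage genes 5 rose and 4 fell. The ligands Dll1, Dll3 and Dll4, which secretory cells carry, went from means under 1 RPKM to 9.04 to 10.4, 3.36 to 4.602 and 4.03 to 5.28 RPKM. Nrarp, a Notch target that damps the signal, went from 0.201, 0.370 and 0.478 to 13.2, 13.2 and 14.02 RPKM. The receptors differed: Notch1 did not pass the test, at 8.36, 8.16 and 9.18 RPKM at E13.5 and 9.97, 9.21 and 8.02 RPKM at E16.5, while Notch3 fell from 11.7, 10.6 and 9.78 to 0.857, 1.25 and 0.772 RPKM and Notch2 from 13.5, 11.2 and 12.96 to 5.84, 5.56 and 5.78 RPKM. Hes1, the main target gene, was too scattered at E13.5 to place, at 18.8, 60.1 and 25.9 RPKM against 30.4, 32.6 and 28.8 RPKM at E16.5. Sox4 and Sox9, factors of progenitors, fell by 1.62 (SE 0.13) and 1.03 (SE 0.12) on the log2 scale.

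Among 35 tested intestinal transcription factors 12 rose and 6 fell (median -0.03), with 10 falling where total RPKM was set equal. Cdx2, the factor that sets intestinal identity, did not pass, at 81.3, 78.5 and 89.3 RPKM at E13.5 and 80.5, 78.8 and 85.3 RPKM at E16.5. Its relative Cdx1 went from 3.13, 6.70 and 6.13 to 91.0, 84.3 and 83.3 RPKM (log2 change 3.96, SE 0.26). Factors of enterocyte maturation rose: Hnf4g from 7.28, 9.48 and 13.4 to 43.6, 44.6 and 52.2 RPKM, Hnf4a by 1.56 (SE 0.11), and Maf from 0.450, 0.788 and 0.491 to 15.9, 17.98 and 25.5 RPKM.

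The lipid-sensing receptors Nr1h3 and Ppara rose by 2.50 (SE 0.15) and 2.37 (SE 0.15) from levels at or under 1.24 RPKM. Falling factors were mostly those of progenitors and early endoderm. Sox11 went from 44.7, 40.1 and 44.4 to 9.24, 9.33 and 6.96 RPKM and Meis1 from 15.9, 14.5 and 13.4 to 2.33, 3.03 and 2.71 RPKM. Foxa1 fell by 1.59 (SE 0.13) and Tcf7, a Wnt effector and target, by 1.66 (SE 0.13).

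Genes of fetal growth timing counted 10 lower and 2 higher of 24 (median -0.54). Lin28b, an RNA-binding protein that holds back let-7 maturation and marks fetal timing, went from 2.83, 1.96 and 2.50 to 0.213, 0.177 and 0.154 RPKM. Hmga2 and Igf2bp1, which let-7 represses, fell by 1.37 (SE 0.13) and 1.49 (SE 0.10) but remained at 41.9 to 47.0 and 24.0 to 26.8 RPKM. The imprinted genes did not move as 1 group. Peg3 went from 230.0, 195 and 188 to 19.7, 23.2 and 19.9 RPKM, and Ndn and Grb10 fell by 2.03 and 1.59. Cdkn1c, an imprinted inhibitor of the cell cycle, rose from 68.8, 69.5 and 64.3 to 211, 222 and 296 RPKM, and Igf2 and H19 did not pass the test (log2 change 0.34, SE 0.12, and 0.77, SE 0.16).

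The libraries also count transcripts that carry miRNAs of the miR-17 family, whose members repress regulators of cell cycle arrest. The sequence of miR-93-5p is shown because the row of its precursor fell, with the seed (bases 2 to 8) in capitals.
miR-93-5p: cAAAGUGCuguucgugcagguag
The Mir93 row (chr5:138165523-138165610) went from 18.2, 19.8 and 25.2 to 5.24, 4.23 and 2.99 RPKM. It lies inside Mcm7, which itself fell from 96.6, 87.1 and 97.2 to 56.5, 53.4 and 52.2 RPKM, and reads of the precursor cannot be told from reads of that host. Mir17hg, annotated at chr14:115044390-115046728 in the miR-17 to miR-92 cluster, went from 8.92, 8.36 and 9.02 to 2.61, 2.28 and 1.42 RPKM (log2 change -1.86, SE 0.36), and its annotated span starts downstream of miR-17-5p and miR-20a-5p. These rows count precursor or host RNA, mature miRNAs were not measured, and the genes were chosen after their values were seen.

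No Hedgehog gene rose and 6 of 11 tested fell (median -0.91). Shh, the ligand (chr5:28456840-28467101), went from 126, 126 and 149 to 23.2, 28.2 and 15.96 RPKM (log2 change -2.58, SE 0.27, adjusted p = 2.5e-05). Ihh, the other epithelial ligand, was at 41.8, 47.6 and 48.9 RPKM at E13.5 and 32.6, 31.8 and 26.7 RPKM at E16.5 (log2 change -0.60, SE 0.14), not past the test, though lower in each E16.5 library and called lower with total RPKM set equal and with quantile normalization. Shh was thus the more abundant ligand at E13.5 in each library, while Ihh was above Shh in each E16.5 library, on RPKM, which is per length. Receiving components were lower too: Ptch1, the receptor, went from 17.3, 14.6 and 16.5 to 6.74, 6.998 and 6.99 RPKM, and the co-receptor Gas1 fell by 1.41 (SE 0.23). Smo fell by 0.96 (SE 0.18) but lost its call without any 1 of 4 libraries. Gli3, the transcription factor that represses targets without ligand, went from 5.52, 5.44 and 6.94 to 0.417, 0.417 and 0.317 RPKM. The study saw Ptch1 RNA throughout the mesenchyme, and the part of mesenchymal RNA in the falls of these receiving components was not tested.

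Of 26 tested Wnt targets and stem cell genes 10 fell and 3 rose (median -0.34). The Wnt receptors Fzd2 and Fzd10 went from 8.89, 8.88 and 8.55 to 0.970, 0.983 and 0.591 RPKM and from 16.1, 17.4 and 26.3 to 3.61, 4.63 and 2.43 RPKM. Sp5, a direct target, went from 1.92, 1.21 and 2.68 to 0.220, 0.279 and 0.104 RPKM, and Ephb3 fell by 2.12 (SE 0.12). Other direct targets did not follow. Axin2 was at 7.54, 7.68 and 12.4 RPKM at E13.5 and 16.9, 16.8 and 12.5 RPKM at E16.5, and Lgr5, the stem cell receptor, at 5.09, 5.88 and 10.03 RPKM and 6.66, 6.59 and 5.05 RPKM, neither past the test. For both genes E13.5 replicate 3 was the highest of its group and E16.5 replicate 3 the lowest. Without E13.5 replicate 3, Axin2 passed with a log2 change of 0.96. Myc rose from 8.31, 14.3 and 10.5 to 34.5, 31.2 and 22.1 RPKM, Ccnd2, a cyclin, by 1.13 (SE 0.12), and Smoc2, a stem cell gene, by 1.08 (SE 0.19), the last only with the main and the quantile scaling.

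BMP and TGF beta response genes counted 3 higher and 2 lower of 13, beside 16.3% and 12.7% of all genes tested. The list median changes sign between scalings. The Id genes, targets of BMP signals that block differentiation factors, did not move together. Id1 went from 3.07, 1.55 and 0.338 to 31.8, 23.3 and 21.3 RPKM, Id3 from 1.01, 1.61 and 0.324 to 24.3, 16.03 and 11.7 RPKM, and Id4 rose by 3.38 (SE 0.35). Id2 fell from 170.1, 183 and 159 to 95.3, 93.3 and 85.4 RPKM, and remained the most abundant of the family.

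Genes known from fetal progenitors and from regenerating epithelium split, with 5 higher and 6 lower of 16. Areg and Ereg, ligands of the EGF receptor, rose, Areg from 0.09999, 1.04 and 0.309 to 23.8, 14.2 and 13.6 RPKM and Ereg by 2.68 (SE 0.15). The receptor Egfr went from 1.496, 1.39 and 1.35 to 5.28, 5.39 and 5.53 RPKM. Clu, clusterin, fell from 22.4, 24.0 and 7.88 to 2.14, 1.77 and 1.502 RPKM, and Gja1, connexin 43, from 22.8, 22.7 and 16.3 to 3.45, 3.41 and 3.24 RPKM. Over the 27 EGF, FGF and ephrin genes 6 rose and 5 fell, beside 16.3% and 12.7% of all genes tested. The falls included Pdgfc, a ligand read by mesenchymal PDGFRa, from 44.6, 38.6 and 54.8 to 6.11, 6.93 and 5.51 RPKM. They also included the receptors Fgfr1 and Fgfr2 (-2.42 and -1.28).

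Cell shape and contact genes changed by member. Of 17 tight junction genes 6 rose and 1, Cldn6, fell (median 0.50). Cldn2 and Cldn15, which form pores for cations, went from 1.20 to 1.24 RPKM up to 23.4, 25.0 and 34.5 RPKM and from 0.366 to 0.432 RPKM up to 5.02, 5.20 and 6.15 RPKM. Of 15 keratin and cytoskeleton genes 6 rose and 5 fell. The simple-epithelium keratins Krt8 and Krt19 went from 127, 146 and 114 to 407, 415 and 398 RPKM and from 118, 180.5 and 133 to 463, 452 and 456 RPKM. Tubb2b and Tuba1a (tubulins with close copies, so uncertain by gene), the actin-binding gene Dbn1 and Vim fell; Dbn1 went from 82.3, 74.8 and 67.7 to 4.64, 5.66 and 4.70 RPKM. Vim, vimentin, also of mesenchyme, was at 177, 215 and 326 RPKM at E13.5, and the part of mesenchymal RNA in its fall was not tested.

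Of 27 basement membrane and integrin genes 14 fell and 5 rose (median -0.86). Collagen IV and laminin chains fell: Col4a1 from 38.2, 39.8 and 33.7 to 3.50, 5.30 and 4.98 RPKM, Lama1 from 14.2, 10.9 and 14.6 to 1.64, 1.83 and 1.67 RPKM and Lamb1 from 47.8, 54.5 and 52.9 to 12.2, 15.4 and 11.4 RPKM. Receptors for laminin rose, Itgb4 from 2.17, 3.31 and 2.09 to 11.4, 14.5 and 14.5 RPKM and Itga3 by 1.51 (SE 0.12). Nid1 and Nid2, which bridge laminin and collagen IV, rose by 1.47 and 2.33 from levels at or under 1.08 RPKM.

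Of 45 replication and mitosis genes 1 rose and 6 fell (median -0.41), a share of falls near that of all genes tested (12.7%). The count of falls depended on the scaling, with 18 for values as deposited, 24 for total RPKM set equal and 16 for quantile normalization. The licensing and fork genes Cdc6, Gins1 and Gins2 had log2 changes between -0.92 and -0.86, and Gins1 and the chromatin assembly gene Chaf1b each lost their call without any 1 of 4 libraries. Mki67, expressed in all dividing cells, was at 81.9, 81.9 and 84.3 RPKM at E13.5 and 92.8, 96.6 and 90.7 RPKM at E16.5, not past the test, and its direction depended on the scaling. Of 18 genes that hold back the cycle 9 rose and 0 fell (median 0.92), 5 of them under all 4 scalings. Besides Cdkn1c they included Cdkn2b, from 0.775, 1.67 and 0 to 7.20, 7.57 and 9.05 RPKM, and Rb1, from 1.33, 1.47 and 1.51 to 5.83, 5.12 and 7.47 RPKM.

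Metabolic genes rose broadly. Of 17 fatty acid oxidation and ketone genes 15 rose and 0 fell, also under all 4 scalings (median 1.63). Cpt1a, which admits fatty acids to mitochondria, went from 2.98, 2.79 and 1.13 to 12.5, 14.1 and 17.7 RPKM. Of 36 respiratory chain subunit genes and regulators 30 rose and 0 fell (median 1.01), 18 of them under all 4 scalings, with Ndufb10 from 55.4, 59.99 and 53.5 to 154, 156 and 162 RPKM. Ppargc1a, a coactivator of mitochondrial genes, rose by 1.91 (SE 0.15).

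Glycolysis genes did not move as 1 group, with 7 higher and 2 lower of 19, and 4 higher under each other scaling. Pklr, the pyruvate kinase of liver and gut, went from 8.02, 8.74 and 9.71 to 53.4, 55.8 and 79.5 RPKM. Ldhb and Hk2 fell, Ldhb from 29.4, 23.9 and 23.2 to 2.68, 2.39 and 2.38 RPKM. Of 23 sterol and fatty acid synthesis genes 10 rose, but only 2 under all 4 scalings.

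Nitrogen genes known from the suckling gut rose, 6 of 12, with 1 lower (median 1.04) and 3 lower under each other scaling. Otc, which makes citrulline, went from 0.776, 1.08 and 1.498 to 36.7, 36.3 and 48.1 RPKM, Cps1 from 26.9, 33.0 and 53.2 to 235, 241 and 304 RPKM, and Nags, whose product activates Cps1, rose by 3.72 (SE 0.13). Arg1, arginase, which breaks arginine down, fell from 5.01, 3.58 and 3.13 to 0.625, 0.577 and 0.830 RPKM. Of 17 drug and retinoid genes 10 rose and 4 fell. The export pump Abcc2 rose by 5.11 (SE 0.21), while the retinoic acid binding gene Crabp2 and the retinoic acid degrading enzyme Cyp26b1 fell by 3.56 and 2.78.

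Of 11 defence genes 8 rose and 1 fell. Lypd8, a secreted protein that keeps flagellated bacteria off the epithelium, went from 12.6, 9.87 and 12.5 to 236, 227 and 329.9 RPKM. The antigen-presenting genes H2-K1 and H2-D1 (similar copies, so uncertain by gene) rose by 2.75 (SE 0.08) and 1.98 (SE 0.10). Of 30 ribosomal protein genes 0 passed in either direction (median 0.51). Of 26 immediate early and heat shock genes, which respond to dissociation, 3 rose, Zfp36, Ddit3 and Ier5, beside 16.3% of all genes tested (list median 0.71). Zfp36 went from 9.85, 20.5 and 16.8 to 89.6, 48.7 and 57.5 RPKM. What dissociation contributes to the stage difference was not tested.

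Position genes of the anterior Hox groups fell. Of 5 tested genes of groups 1 to 5, 4 fell (median -1.14): Hoxd3 went from 7.82, 5.59 and 6.95 to 2.21, 2.15 and 2.08 RPKM and Hoxd4 from 10.99, 9.88 and 13.7 to 5.11, 4.84 and 4.75 RPKM, and Hoxb3 and Hoxb5 fell by 1.22 and 1.06. None of the 3 tested genes of groups 6 to 13 passed. Summed reads still fell for Hoxa10, from 417 at E13.5 to 0 at E16.5, and for Hoxa9, from 175 to 1. Against the floor of 3 reads Hoxa10 was 125.6-fold lower, and the lower end of the counting interval was 101.7. For Hoxa9 the ratio was 158.1, with a counting interval of 28 to 6279. These intervals cover counting error only, and the spread of these reads between libraries is not given here. In proximal epithelium Hoxd3 and Hoxd4 averaged under 1 RPKM at both stages.

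A further 2315 genes had a value at E16.5 and none at E13.5 to set beside it, and 206 of them were at 1 RPKM or more in all 3 distal E16.5 libraries. The tables of each stage were filtered for low counts on their own, so such a gene gets no fold change here. Many are products of mature cells. The goblet genes Spink4, Clca1 and Muc2 averaged 232 ± 23.4, 113 ± 11.8 and 25.1 ± 0.29 RPKM (SD, n = 3), and Guca2a, the guanylin gene, 164 ± 18.6 RPKM. The hormone genes Ghrl and Sst averaged 210.7 ± 18.4 and 30.6 ± 0.55 RPKM, and Insl5, a hormone of distal L cells, was at 7.40, 4.66 and 3.45 RPKM against 0 on average in proximal epithelium.

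Genes of ileal bile acid uptake were in the same set: Slc10a2, the apical sodium-dependent bile acid transporter, at 10.4, 8.37 and 8.17 RPKM and Fabp6, the ileal bile acid binding protein, at 6.71, 7.15 and 9.84 RPKM, against proximal means of 0.0558 and 0.0848 RPKM. The secretory lineage factor Atoh1 was at 8.49, 8.65 and 5.49 RPKM. Sucrase-isomaltase, Sis, an enzyme known to rise at weaning, was at 4.48, 5.15 and 5.36 RPKM.

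To see what was particular to the distal end, the same stage change was fitted in proximal epithelium, with 3 libraries a stage. There 2137 genes were higher (17.1%) and 1570 lower (12.6%), and 1673 and 1216 were called in the same direction in both regions, with 3 called in opposite ones. The genes were those that passed the filter on distal libraries, so genes reaching that level only proximally were left out of every count here. Across the 12497 genes, which are not independent, Pearson's r of the changes was 0.90 and Spearman's rho 0.91, a description over libraries that share tables. At E13.5, 288 genes differed between regions (2.3%), and at E16.5, 437 (3.5%), in a fit that did not pair the regions by replicate. The difference of the changes itself passed the test for 58 genes with the higher change distally (0.464%) and 159 with the lower (1.27%).

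**Figure D3:**
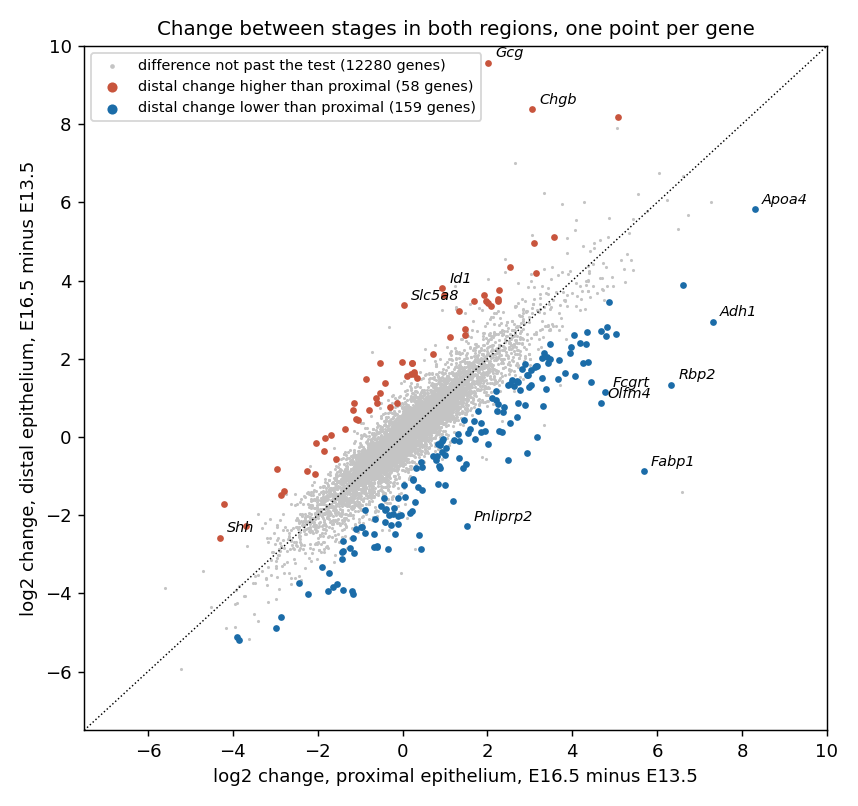
Log2 change from E13.5 to E16.5 in distal (vertical) against proximal epithelium (horizontal), 1 point per gene, with genes whose changes differed between regions in colour (58 higher distally, 159 lower) and the diagonal dotted. Most genes lie along the diagonal (r = 0.90), with Gcg and Chgb far above it and Fabp1, Rbp2, Adh1 and Olfm4 far below.

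Genes whose change was higher distally were led by Gcg, Chgb, Slc5a8, Fcgbp, Id1 and Id3. Slc5a8, a transporter of short-chain fatty acids known from ileum and colon, went from 0.112, 0.296 and 0.0463 to 5.69, 6.23 and 6.55 RPKM distally and was at 0.0701 and 0.0812 RPKM on average proximally (difference 3.34, adjusted p = 0.00013). For Gcg, Chgb and Fcgbp the regions stood apart at E13.5, with proximal means of 11.1, 87.3 and 14.1 RPKM against at most 0.191 RPKM in a distal library. Markers of pancreas summed to 148, 107.9 and 11.8 RPKM in proximal E13.5 libraries and to 1.77 to 1.95 RPKM in distal ones, while proximal Gcg was at 26.0, 5.15 and 2.27 RPKM and Chgb at 182, 67.3 and 12.3 RPKM in the same order of libraries. Proximal Fcgbp ran the other way, at 7.60, 14.3 and 20.4 RPKM. The differences of Chgb, Fcgbp, Id1 and Id3 each lost their call without any 1 of several libraries (adjusted p up to 0.115, 0.0740, 0.142 and 0.119). What pancreatic RNA contributes to the proximal values was not tested, whereas in each distal library the pancreas sum was at most 2.69 RPKM.

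Signal genes differed as well. Shh fell less distally than proximally, where it went from 82.7, 73.9 and 86.8 to 4.10, 3.92 and 3.01 RPKM (difference 1.72, adjusted p = 0.0043). Myc and Ccnd2 rose distally while their proximal means went from 22.6 to 17.1 and from 119 to 82.2 RPKM (differences 1.79 and 1.66). Sox11 fell in both regions but less distally (difference 1.39). At E16.5 Shh and Sox11 were higher distally than proximally by 2.43 and 1.12 on the log2 scale, past the test, while Myc and Ccnd2 (0.75 and 0.57) were not past it. These comparisons within E16.5 had no replicate block. The differences of the stage changes of Shh and Myc lost their call without that block (adjusted p = 0.193 and 0.0502).

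Genes whose change was lower distally included some of fat and retinoid handling. Fabp1, the liver-type fatty acid binding protein, was at 8.53, 2.11 and 1.75 RPKM at E13.5 and 1.88, 0.865 and 2.14 RPKM at E16.5 distally, and went from a mean of 28.7 to 1536 RPKM proximally (difference -6.56, adjusted p = 0.0035). Rbp2, the cellular retinol-binding protein of enterocytes, went from 3.09 to 299 RPKM proximally and was between 0.184 and 6.65 RPKM in the 6 distal libraries. Its distal log2 change of 1.34 did not pass the test. Adh1, an alcohol and retinol dehydrogenase, rose in both regions, to 11.4, 10.7 and 23.1 RPKM distally and to a mean of 175 RPKM proximally (difference -4.37).

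Olfm4, a secreted protein of crypt stem cells, was at 1.05, 1.17 and 1.44 RPKM in distal E16.5 libraries against a proximal mean of 22.6 RPKM. Its distal log2 change of 0.87 did not pass the test. It was called higher with a pseudocount of 0.1, with quantile normalization and without E13.5 replicate 2. Fcgrt, the neonatal receptor that carries maternal antibody across the gut, was at 1.63, 2.79 and 5.69 RPKM distally and 66.5 RPKM proximally at E16.5. Its distal E13.5 mean was 1.11 RPKM (log2 change 1.15, SE 0.36). That change did not pass the test but was called higher without E16.5 replicate 1. Pnliprp2 fell distally and went from 2.02 to 6.79 RPKM proximally (difference -3.79), where pancreas markers went from 11.8 to 148 RPKM at E13.5 to 773 to 1663 RPKM at E16.5. Of the lists, lipid and bile acid absorption had 7 of 18 tested members with a lower distal change and transporters 5 of 16, beside 1.27% of all genes. The goblet list had 2 of 8 with a higher one and the enteroendocrine list 2 of 19, beside 0.464% of all genes. Of these Chgb, Fcgbp and Spdef lost their call on leaving out a library.

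**Figure D4:**
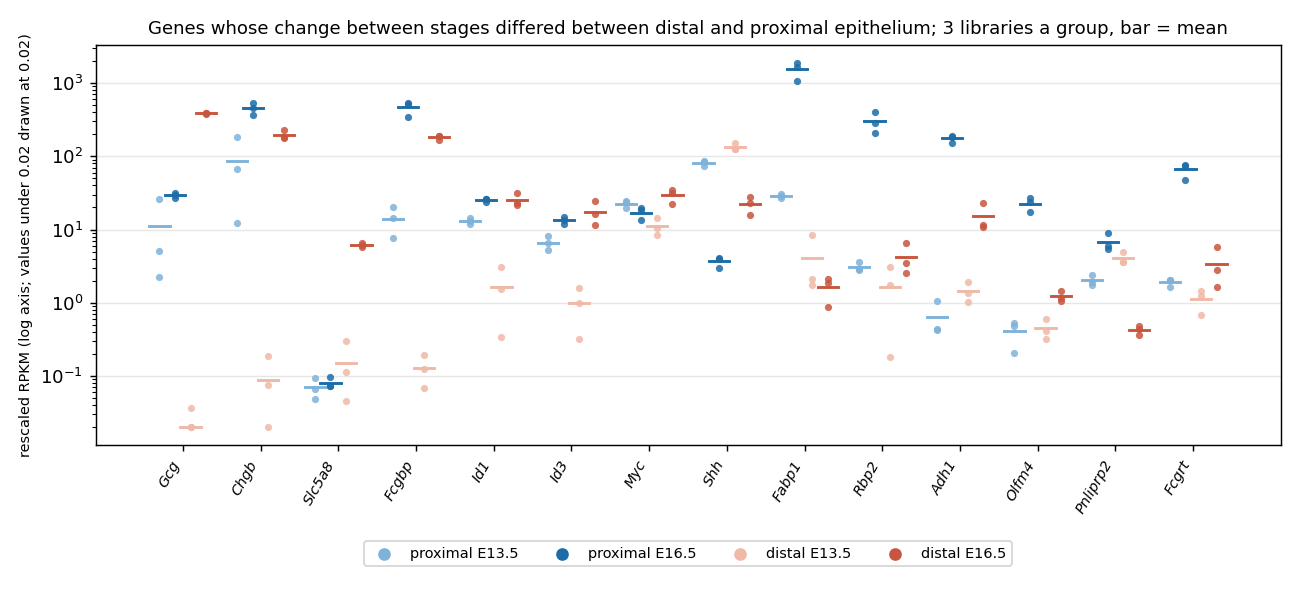
Rescaled RPKM (log axis, values under 0.02 drawn at 0.02) of 14 genes whose change between stages differed between regions, for proximal and distal epithelium at each stage; points are the 3 libraries of a group and bars their means. Gcg, Chgb and Fcgbp are near the bottom only in distal E13.5 libraries, Slc5a8 is high only in distal E16.5 libraries, and Fabp1, Rbp2 and Fcgrt are high only in proximal E16.5 libraries.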

How the data were processed

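Epithelium sorted from fetal mouse intestine was sequenced with a stranded total RNA kit. The deposited values are RPKM, which the authors made by aligning reads to mm10 with Rsubread, counting over RefSeq genes by strand, filtering low counts per table and applying edgeR normalization factors. Tables of both stages were joined by gene identifier and rescaled by the median ratio over shared genes. Whole reads could be recovered for 100% of values (tolerance 0.01). log2(RPKM + 0.5) was fitted with limma 3.58.1 (R 4.3.3, treat, minimum log2 change 0.5) over 15 untreated epithelial libraries. Fold changes are on that scale, which understates low genes. The pseudocount does not enter ratios of reads, whose intervals cover counting error only. The difference between regions in the stage change was fitted with the replicate number within a stage as a block. The stage changes themselves and the comparisons of regions within a stage had no block. The study's methods take the replicate number as the mother, while the labels name no dam, so p-values measure the spread between these libraries. Named genes were the 12 largest changes in each direction without overlap, up to 4 called members per list and direction or those its roles needed, and the 6 largest differences between regions. Members and lists were chosen with earlier results of these data known. Columns of no mapped sample numbered 0. Alternatives are given in the closing section. Some genes are not reported here.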

Additional observations from a re-analysis of the deposited data

Results flagged for a closer look

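The genes below were picked out because their change from E13.5 to E16.5 differed between distal and proximal epithelium by a test of the difference itself (limma, adjusted p under 0.05); values are distal minus proximal log2 change.

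Among secretory genes, 2 of 8 tested in the goblet list and 2 of 19 in the enteroendocrine list had the higher change distally, beside 0.464% of all genes tested. They were Gcg (7.57), Chgb (5.33), Fcgbp (3.11) and Spdef (1.802). The same direction was seen for the transporter gene Slc5a8 (3.34) and the peptidase gene Naaladl1 (1.86). Among signal and growth genes it was seen for Id1 (2.87), Id3 (2.64), Myc (1.79), Shh (1.72), Ccnd2 (1.66) and Sox11 (1.40).

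Named genes of fat and retinoid handling with the lower change distally were Fabp1 (-6.56), Rbp2 (-4.995), Adh1 (-4.37), Pnliprp2 (-3.79), Apoa4 (-2.48) and Scarb1 (-1.68). Lower changes were also found for the surface and transport genes Alpi (-2.74), Slc5a1 (-1.44), Espn (-1.46), Cldn15 (-1.97), Fcgrt (-3.62) and Muc1 (-2.21), for the nitrogen genes Ass1 (-2.21), Arg1 (-2.11) and Cps1 (-2.001), and for the secreted proteins Olfm4 (-3.80) and Spink1 (-2.45). The remaining ones were Kcnq3 (-1.91), Tead2 (-1.73), Ldhb (-1.70), Efnb2 (-1.59), Igdcc3 (-1.34) and Mdk (-1.23), of which Kcnq3, Tead2, Igdcc3 and Mdk fell in both regions. At E16.5 Kcnq3 averaged 0.0476 RPKM distally and 0.00647 RPKM proximally, and Igdcc3 0.185 and 0.0210 RPKM. These levels lie under the pseudocount of 0.5, so the differences of both depend on it. With a pseudocount of 0.1 they were -1.67 and -0.61, neither past the test. Pancreas markers were high in proximal libraries, as given with the comparison of regions, and their part in these values was not tested. Without the replicate block, Mdk (adjusted p = 0.3), Slc5a1 (0.227), Shh (0.193), Espn (0.108), Apoa4 (0.0549) and Myc (0.0502) lost their call. Spdef lost it without any 1 of 4 libraries (adjusted p = 0.0573 to 0.0872). Calls of Chgb, Fcgbp, Igdcc3, Id1, Id3, Ass1 and Muc1 were likewise lost on leaving out a library. With limma-voom on recovered reads those of Kcnq3, Naaladl1, Alpi and Apoa4 (adjusted p = 0.807) were lost. With a pseudocount of 1 those of Chgb and Fcgbp were lost, and with a pseudocount of 0.1 also those of Id1, Id3 and Naaladl1.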

How the results depend on the processing

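Of 215 genes named for the distal change, 188 kept their direction and side of the threshold under every alternative run and 199 whichever library was left out; of 35 named for the difference between regions, 18 and 27 did. With total RPKM set equal, 1277 genes were higher and 2687 lower distally, and 2542 lower proximally; with values as deposited, 2391 were lower proximally. With RPKM of at least 5 required, which tests fewer genes, 941 were lower distally. With no minimum change, 4537 were higher and 4105 lower distally, and 4389 and 4277 proximally. With limma-voom on recovered reads, an alternative added for the difference between regions after seeing the data, 106 genes had the higher distal change, and Igdcc3 turned to 0.82. Leaving out 1 library gave 1792 to 2012 genes higher and 1399 to 1537 lower distally, 1945 to 2086 and 1417 to 1501 proximally, and 40 to 73 and 122 to 158 for the difference between regions. Mki67, not called, changed sign with values as deposited (-0.035), total RPKM set equal (-0.13) and quantile normalization (-0.10). Hes1 (-0.37 to 0.46), Cdx2 (-0.0641 to 0.028) and Lgr5 (-0.32 to 0.13), not called, changed sign on leaving out 1 library. The cause was not tested. Same-numbered libraries of the 2 stages did not deviate together (r = -0.15, -0.10 and -0.22), which cannot show whether they share more than a number. With the replicate number as a block across stages, 2065 genes were higher and 1586 lower distally, and 2156 and 1571 proximally. Without the replicate block within a stage, 42 genes had the higher and 125 the lower distal change. The planned edgeR and DESeq2 fits on recovered reads were not run. Stage and library set cannot be told apart, and genes with few E13.5 reads have wide ratios.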
